A study of Mus musculus with 12 samples.

Results

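Integrins are the receptors by which cells hold on to the extracellular matrix and to each other, and laminins are the trimeric proteins of the basement membrane that several of them bind. The genes of 26 integrin subunits and 10 laminin chains were looked up by symbol in the deposited tables of an injured spinal cord series, and all 36 were found among 57180 genes. They were read across the 3 groups of the series by role, with integrins of leukocytes set against integrins that bind matrix. The low-count filter left 35 of the 36 among 17821 tested genes. The exception was Itgb6, an epithelial partner of the alpha v chain, which stood at 0 to 0.269 CPM (counts-per-million, scaled by TMM), against a floor of 3 counts that corresponded to 0.0944 to 0.165 CPM per library.

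The libraries are bulk RNA-seq of the cord of female C57BL/6J wild-type mice, collected 7 days after a clip was closed on the cord at T9-T10, with about 0.5 cm of tissue on either side of the lesion. OVX8_SCI7 mice had been ovariectomized 8 weeks before the injury and OVX2_SCI7 mice 2 weeks before it, and SCI7 mice had the injury without ovariectomy. Each group has 4 biological replicates by its labels, and all 12 carry the same batch label. All mice thus carry the same injury, no sham surgery or uninjured cord was analysed here, and the loss of the ovaries cannot be told apart from the surgery itself. Every mouse is labelled 8 weeks old without the moment being given, which for OVX8_SCI7 cannot be the day of collection, so age may also differ between groups.

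An integrin is a pair of 1 alpha and 1 beta chain, and the pair decides the ligand. The beta 2 chain pairs with alpha chains of leukocytes and binds ICAMs, complement and fibrinogen, whereas alpha v with its beta partners binds vitronectin, fibronectin and latent TGF-beta, and the chains of the alpha 3, 6 and 7 and beta 4 group bind laminin. A laminin is built from an alpha, a beta and a gamma chain and forms the basement membrane of vessels, meninges and the glial limitans. In the injured cord, microglia and infiltrating macrophages carry the alpha M beta 2 receptor, and the scar that forms around the lesion is rich in fibronectin and laminin.

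Library totals ran from 18222809 to 31781728 counts. The labelled tissue was visible in every library, since the summed level of 5 oligodendrocyte markers was 17005 to 22487 CPM in OVX8_SCI7, 12988 to 31976 in OVX2_SCI7 and 18889 to 26583 in SCI7, and that of 5 astrocyte markers was 5727 CPM or more everywhere. Transcripts of the mitochondrial genome took 2.2 to 3.36% of counts in OVX8_SCI7, 2.36 to 8.33% in OVX2_SCI7 and 5.35 to 9.35% in SCI7. Across 15087 protein-coding genes, a library's deviation from the mean of all libraries also followed the GC content of the transcript, with Spearman correlations of 0.15 to 0.83 in OVX8_SCI7, -0.41 to 0.51 in OVX2_SCI7 and -0.80 to -0.49 in SCI7. Replicate 1 of OVX2_SCI7 stood apart from its group on both measures, at 8.33% and -0.41. In bulk tissue, fewer cells of a type and less RNA per cell cannot be told apart, which holds for every level below.

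Both ovariectomy groups were compared with SCI7 and with each other by edgeR's quasi-likelihood test at a threshold of 0.05, with p-values adjusted after Benjamini and Hochberg over all 17821 genes. In OVX8_SCI7 against SCI7, Itgb4, Itgb5, Lamb2 and Lamc3 were higher and Itgav and Itgb8 lower, which makes 4 of 35 members called higher and 2 called lower. Over all genes tested, 11.9% were called higher and 15.6% lower, so the members' share of higher calls was near that of all genes and their share of lower calls was below it. No leukocyte integrin passed. The libraries of OVX8_SCI7 and SCI7 did not overlap for 10 members that were higher, where 19.6% of all genes were, and for 2 that were lower, where 19.6% of all genes were.

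The number of calls changed with the libraries and the tool. With all 12 libraries edgeR called 6 members and 4894 genes. DESeq2 called 11 members and 6405 genes, and an edgeR fit of the 8 libraries of the comparison alone called 15 members and 7424 genes. By edgeR no member was called without replicate 2 or 3 of OVX8_SCI7, where 0 and 1215 genes were called, or without replicate 2 of SCI7, where 1641 genes were. Leaving out replicate 1 of OVX8_SCI7 left 3 members and 2538 genes, and leaving out replicate 1 of SCI7 left 1 member, Itgav, and 2349 genes. Without replicate 4 of SCI7, 10 members and 4848 genes were called. Leaving out replicate 1 of OVX2_SCI7, which is in neither group of this comparison, gave 10 members and 6706 genes. The median log2 fold change over the 35 members was 0.61, beside 0.015 over all genes tested, and 26 members were positive and 9 negative.

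In OVX2_SCI7 against SCI7 no member and no gene was called by edgeR, so the share of all genes was 0%. The smallest adjusted p of any member was 0.0520, for Itgav and for Lamc3. At an unadjusted p under 0.05 stood 9 members and 5789 genes, and DESeq2 called 6 members and 3706 genes. Without replicate 1 of OVX2_SCI7, 9 members and 6264 genes were called by edgeR. Libraries did not overlap for 2 members that were higher, Itgb4 and Lamc3, where 6.12% of all genes were, and for 0 that were lower, where 6.3% of all genes were. The median over the members was 0.44 on the log2 scale, beside 0.038 over all genes.

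Between the ovariectomy groups, OVX8_SCI7 against OVX2_SCI7, edgeR again called no gene, a share of 0%. Every member had an adjusted p of 0.999, no member and 393 genes had an unadjusted p under 0.05, and DESeq2 called 6 genes and no member. The widest 95% intervals of this difference among the 6 members named above were -0.58 to 1.02 on the log2 scale for Itgb5, -0.63 to 0.98 for Lamb2 and -1.27 to 0.26 for Itgb8. The 2 comparisons with SCI7 share its 4 libraries, so their values are given side by side and not counted as independent.

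**Figure D1:**
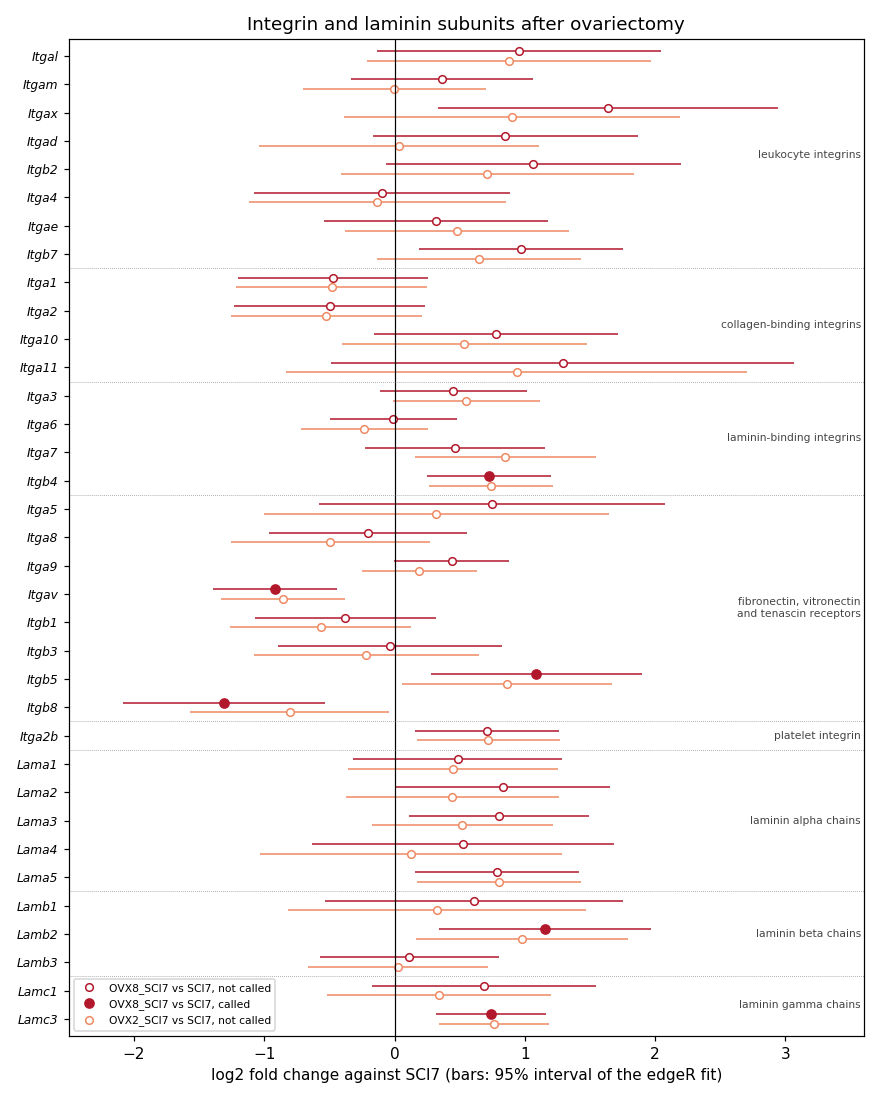
Log2 fold change of the 35 tested members against SCI7, with the 95% interval of the edgeR fit, for OVX8_SCI7 (dark red, upper point of each row) and OVX2_SCI7 (orange, lower point), grouped by role. Filled points passed the adjusted threshold of 0.05: 4 members lie to the right and 2 to the left of 0 in OVX8_SCI7, and no OVX2_SCI7 point is filled.

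The receptors of vitronectin and latent TGF-beta were called in both directions. Itgav encodes the alpha v chain and Itgb8 and Itgb5 are 2 of its beta partners, of which alpha v beta 8 is known for releasing active TGF-beta and alpha v beta 5 for binding vitronectin. Itgav and Itgb8 were lower in OVX8_SCI7, and Itgb5 was higher.

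Itgav had 140.2, 124, 127 and 172 CPM in replicates 1 to 4 of OVX8_SCI7, 193, 105, 128 and 160.3 CPM in OVX2_SCI7 and 276, 322, 189 and 276 CPM in SCI7. All 4 libraries of OVX8_SCI7 lay below all 4 of SCI7, and in OVX2_SCI7 only replicate 1 reached the lowest SCI7 library. Its log2 fold change was -0.92 (SE 0.22, edgeR adjusted p = 0.0157) in OVX8_SCI7 and -0.86 (SE 0.22, edgeR adjusted p = 0.0520) in OVX2_SCI7, both against SCI7. The OVX8_SCI7 call was lost without replicate 2 of SCI7 or without replicate 2 or 3 of OVX8_SCI7, where the log2 fold change was -0.81, -0.86 and -0.87.

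Itgb8 had 104, 98.4, 109 and 128 CPM in OVX8_SCI7, 306, 133, 81.2 and 102 CPM in OVX2_SCI7 and 277, 320.3, 303 and 189 CPM in SCI7. OVX8_SCI7 and SCI7 did not overlap, while replicate 1 of OVX2_SCI7 stood at the level of SCI7 and its other replicates were near OVX8_SCI7. In the test it had a log2 fold change of -1.31 (SE 0.36, edgeR adjusted p = 0.0223) in OVX8_SCI7 and -0.81 (SE 0.35, edgeR adjusted p = 0.136) in OVX2_SCI7. Without replicate 1 of OVX2_SCI7 that group against SCI7 gave -1.38 with an edgeR adjusted p of 0.00232. The OVX8_SCI7 call was lost without replicate 1 or 2 of SCI7 or without replicate 1, 2 or 3 of OVX8_SCI7, at log2 fold changes of -1.31 to -1.22.

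Itgb8 is known from astrocytes, and the summed level of 5 astrocyte markers was 8624 to 10047 CPM in OVX8_SCI7, 5727 to 13214 in OVX2_SCI7 and 9205 to 11462 in SCI7. Of the 5, Gja1 was called lower in OVX8_SCI7 against SCI7 and none higher, where 15.6% and 11.9% of all genes were. For 3 of them, Aqp4, Slc1a2 and Gja1, every OVX8_SCI7 library lay below every SCI7 library, where 19.6% of all genes did. The other 2, Gfap and Aldh1l1, were positive, and Gfap was the largest part of the sum, at 5610 to 6802 CPM in OVX8_SCI7. The median log2 fold change over the 5 was -0.63, and -0.31 with the GC and length offset described below. Within OVX2_SCI7 the sum and Itgb8 were both highest in replicate 1, at 13214 and 306 CPM, and both lowest in replicate 3, at 5727 and 81.2 CPM. Within OVX8_SCI7 the sum was highest in replicate 3, at 10047 CPM, and Itgb8 in replicate 4, at 128 CPM, where the sum was 8863 CPM. Within SCI7 both were lowest in replicate 4, at 9205 and 189 CPM, while the sum was highest in replicate 1 and Itgb8 in replicate 2. The part of astrocyte number in the Itgb8 call was not tested.

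Itgb5 had 492, 476, 469.7 and 472 CPM in OVX8_SCI7, 185, 296, 609 and 545 CPM in OVX2_SCI7 and 239, 245, 106 and 308 CPM in SCI7. The OVX8_SCI7 libraries lay within a few percent of each other and above every SCI7 library, while those of OVX2_SCI7 spread from below most SCI7 libraries to above every OVX8_SCI7 library. Its log2 fold change was 1.09 (SE 0.37, edgeR adjusted p = 0.0473) in OVX8_SCI7 and 0.86 (SE 0.37, edgeR adjusted p = 0.131) in OVX2_SCI7. This was the least stable of the 6 calls, held in 3 of the 12 fits that left out 1 library: those without replicate 1 or 3 of OVX2_SCI7 or replicate 4 of SCI7. In the other 9 its log2 fold change was 0.85 to 1.13 and its adjusted p 0.0506 to 0.101.

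The shares of the beta partners were set out per length, in TPM (transcripts-per-million), after the values above were seen, and carry no test. Of the summed TPM of Itgb1, Itgb3, Itgb5, Itgb6 and Itgb8, Itgb5 made up 57.2 ± 4.90% in OVX8_SCI7, 52.7 ± 10.3% in OVX2_SCI7 and 33.3 ± 4.11% in SCI7 (mean ± SD, n = 4 each). Itgb8 made up 4.36 ± 0.341% in OVX8_SCI7, 8.76 ± 8.19% in OVX2_SCI7 and 13.3 ± 6.85% in SCI7. Itgb1, the common beta chain of most matrix receptors, made up 37.3 ± 4.88% in OVX8_SCI7, 37.4 ± 2.61% in OVX2_SCI7 and 52.1 ± 5.01% in SCI7. These shares are not corrected for transcript GC content, which is 57.0% for Itgb5, 44.8% for Itgb1 and 40.4% for Itgb8. With the GC and length offset described below, their log2 fold changes in OVX8_SCI7 against SCI7 were 0.48, -0.0090 and -0.49. The ratio of Itgb5 to Itgb8 TPM was 14.4, 14.3, 12.8 and 11.2 in the OVX8_SCI7 libraries, 1.84, 6.64, 22.95 and 15.9 in those of OVX2_SCI7 and 3.23, 2.78, 1.24 and 5.03 in those of SCI7. Every OVX8_SCI7 library was above every SCI7 library, and OVX2_SCI7 held both the second lowest and the highest ratio of the series. The separation of OVX8_SCI7 and SCI7 had to arise, since neither gene overlapped between them and they differed in opposite directions. It restates those values and is no further result.

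**Figure D2:**
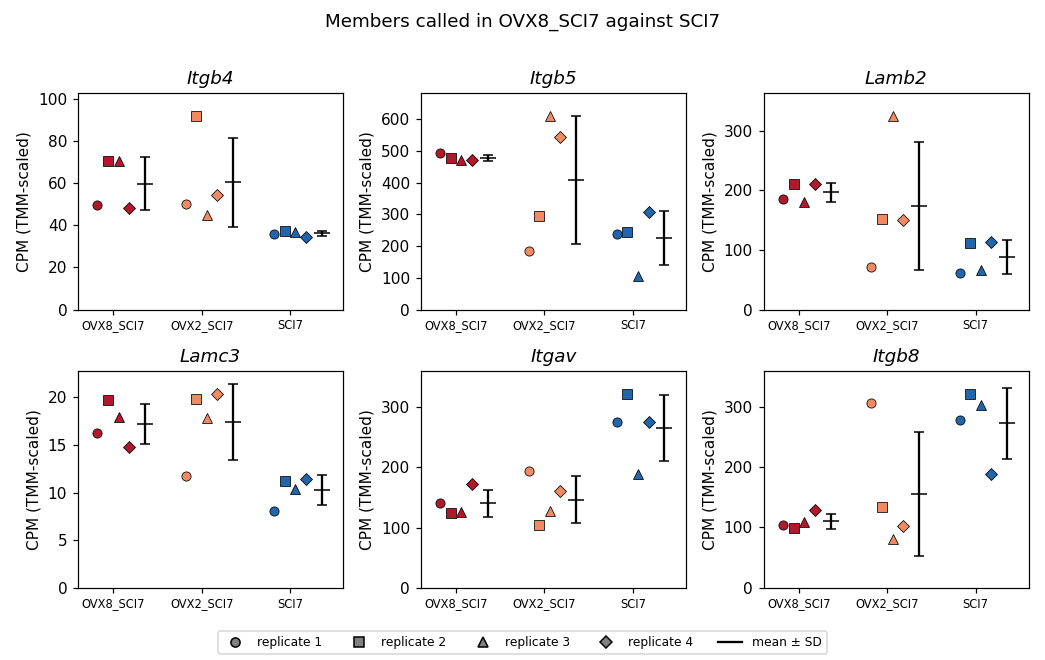
CPM of the 6 members called in OVX8_SCI7 against SCI7, by group, with a marker shape for each replicate number and the mean ± SD (n = 4) to the right of the points; each axis starts at 0. In each panel the OVX8_SCI7 points lie on one side of all SCI7 points, and OVX2_SCI7 overlaps with SCI7 for Itgb5, Lamb2, Itgav and Itgb8, where its replicate 1 lies among the SCI7 points or nearest to them.

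The promoter windows of the called members are shown because their transcripts differed in GC content and moved with it, as set out below, and the letters show whether the start of the gene shares that property. RefSeq windows of 250 bases before to 50 after the start (build GRCm38.p6) were at hand for 23 members and for 4 of the 6 called. Capitals mark the GC box, searched as GGGCGG and its reverse complement CCGCCC, which 35.7% of all 32851 windows of this length hold. Itgav, at chr2:83724147-83724446 on the plus strand, holds 1 box and has 67.3% GC. Itgb5, at chr16:33829415-33829714 on the plus strand, holds 3 and has 65.7% GC. Itgb8, at chr12:119238227-119238526 on the minus strand, holds none and has 60.7% GC. Lamb2, at chr9:108479612-108479911 on the plus strand, holds none and has 44.0% GC, while the median window has 52.7%. Each is written 5′ to 3′.
Itgav: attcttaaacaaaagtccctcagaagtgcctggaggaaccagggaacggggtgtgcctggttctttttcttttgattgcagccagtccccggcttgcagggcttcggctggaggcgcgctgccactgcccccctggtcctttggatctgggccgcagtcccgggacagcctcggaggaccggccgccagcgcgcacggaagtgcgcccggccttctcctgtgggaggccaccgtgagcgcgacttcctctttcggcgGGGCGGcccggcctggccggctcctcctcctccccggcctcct
Itgb5: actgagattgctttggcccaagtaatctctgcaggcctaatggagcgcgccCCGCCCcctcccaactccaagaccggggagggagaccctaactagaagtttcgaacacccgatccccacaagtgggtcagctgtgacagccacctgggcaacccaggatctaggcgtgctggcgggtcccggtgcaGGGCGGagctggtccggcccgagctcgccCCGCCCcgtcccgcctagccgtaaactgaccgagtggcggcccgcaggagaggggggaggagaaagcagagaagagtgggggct
Itgb8: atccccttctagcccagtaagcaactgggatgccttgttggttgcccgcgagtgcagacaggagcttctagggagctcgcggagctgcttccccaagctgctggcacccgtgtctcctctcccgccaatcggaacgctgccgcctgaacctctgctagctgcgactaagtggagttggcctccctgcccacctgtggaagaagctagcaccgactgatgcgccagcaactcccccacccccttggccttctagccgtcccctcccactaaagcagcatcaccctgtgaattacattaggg
Lamb2: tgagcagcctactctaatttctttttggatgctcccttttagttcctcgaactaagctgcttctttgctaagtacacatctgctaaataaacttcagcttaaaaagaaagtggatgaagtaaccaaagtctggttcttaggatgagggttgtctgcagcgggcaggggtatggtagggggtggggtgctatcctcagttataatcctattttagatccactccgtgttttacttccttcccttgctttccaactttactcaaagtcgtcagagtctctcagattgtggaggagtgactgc
The windows of Itgav and Itgb8, which were lower, and of Itgb5, which was higher, are all richer in GC than the median window, and that of Lamb2, which was higher, is poorer. The order of the windows by GC thus differs from that of the transcripts given further below, and the letters say nothing of what binds there.

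The other fibronectin, vitronectin and tenascin receptors were not called, so that 1 of 8 tested was higher and 2 lower, beside the 11.9% higher and 15.6% lower of all genes. Itgb1 had 415 ± 98.98 CPM in OVX8_SCI7, 364 ± 127 CPM in OVX2_SCI7 and 539.6 ± 200.3 CPM in SCI7 (SD, n = 4 each), with overlapping libraries and an edgeR adjusted p of 0.376 in OVX8_SCI7 against SCI7. Itga5, the alpha chain of the main fibronectin receptor, had a log2 fold change of 0.75 with an SE of 0.61, and SCI7 spanned 15.4 to 106 CPM. Itgb3, Itga8 and Itga9 had log2 fold changes of -0.034, -0.20 and 0.44 in OVX8_SCI7, none called. The median over the 8 tested was -0.12.

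Among the laminin receptors, Itgb4 was called and its alpha partner was not. Itgb4 encodes the beta 4 chain, which pairs with alpha 6 and in nerve and vessel binds laminin of the basement membrane. It had 49.7, 70.3, 70.6 and 48.3 CPM in OVX8_SCI7, 50.04, 91.7, 44.9 and 54.4 CPM in OVX2_SCI7 and 35.8, 37.4, 36.6 and 34.6 CPM in SCI7. The SCI7 libraries lay close together and below every library of both ovariectomy groups. The log2 fold change was 0.73 (SE 0.22, edgeR adjusted p = 0.0316) in OVX8_SCI7 and 0.74 (SE 0.22, edgeR adjusted p = 0.0599) in OVX2_SCI7. Leaving out any 1 SCI7 library, or replicate 2 or 3 of OVX8_SCI7, ended the OVX8_SCI7 call, at log2 fold changes of 0.63 to 0.74 and adjusted p-values of 0.0551 to 0.0955.

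Itga6, the alpha partner, was the most abundant laminin-binding chain at a mean of 90.5 TPM over all libraries, against 27.7 TPM for Itgb4. It had 169, 153, 163 and 227 CPM in OVX8_SCI7, 137, 119.6, 168 and 185 CPM in OVX2_SCI7 and 175, 211, 112 and 218 CPM in SCI7, and all 3 groups overlapped. Its log2 fold change in OVX8_SCI7 was -0.0089, with a 95% interval of -0.5 to 0.48. Itga3 and Itga7, which pair with beta 1 as laminin receptors, had 0.45 and 0.47 and were not called.

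Replicate 2 of OVX2_SCI7 was the highest library of the series for Itgb4 at 91.7 CPM, for Itga7 at 87.7 CPM and for Itga3 at 55.8 CPM. The same library had 257 CPM of 4 sensory ganglion markers, against 0.370 to 35.2 CPM in SCI7, and 1142 CPM of 3 Schwann cell markers, against 252 to 711 CPM in SCI7. None of the markers of either list was at 0 in all libraries. In OVX8_SCI7 the Schwann cell sum was 472, 796, 863 and 433 CPM in replicates 1 to 4. There Itgb4, Itga3 and Itga7 were likewise higher in replicates 2 and 3, at 70.3 and 70.6, 42.1 and 43.1, and 46.7 and 41.3 CPM. Within SCI7 this was not seen, where Itgb4 stayed at 34.6 to 37.4 CPM and Itga3 was highest in replicate 3, which had the lowest sum. The part of ganglion or nerve root tissue in the values of these 3 genes, and in the Itgb4 call, was not tested. Itga7 is also known from skeletal muscle, of which 5 markers summed to 3.48 to 54.3 CPM in OVX8_SCI7, 0.954 to 14.7 in OVX2_SCI7 and 2.73 to 13.5 in SCI7. Of the 5, 1, Myh4, was called higher in OVX8_SCI7 against SCI7, where 11.9% of all genes were, although the groups overlapped. The part of muscle was not tested.

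The collagen receptors, which pair with beta 1, were not called in either direction. Itga1 had the highest mean of them, 5.90 TPM, and had 27.8, 28.7, 27.5 and 48.05 CPM in OVX8_SCI7, 34.2, 21.1, 40.7 and 34.9 CPM in OVX2_SCI7 and 29.9, 55.8, 25.03 and 72.4 CPM in SCI7. The groups overlapped, and the log2 fold change in OVX8_SCI7 was -0.47 (SE 0.34, edgeR adjusted p = 0.295). Itga2 had -0.5, while Itga10 and Itga11, known from cartilage and from fibroblasts, had 0.78 and 1.29. For Itga10 and Itga11 every OVX8_SCI7 library lay above every SCI7 library, as for 19.6% of all genes. Their edgeR adjusted p-values were 0.184 and 0.240, with OVX2_SCI7 spanning 1.27 to 47.1 CPM for Itga11.

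Leukocyte integrins had a higher median fold change than matrix integrins and no call. The 8 of them, all tested, had a median log2 fold change of 0.90 in OVX8_SCI7 and 0.56 in OVX2_SCI7, both against SCI7, beside 0.21 and -0.014 for 16 tested matrix integrins and 0.015 and 0.038 for all genes tested. In OVX8_SCI7, 7 were positive and 1 negative. The libraries of OVX8_SCI7 and SCI7 did not overlap for 3 that were higher, where 19.6% of all genes were.

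Itgax, the alpha X chain known from dendritic cells and activated microglia, had 57.2, 50.7, 59.2 and 79.9 CPM in OVX8_SCI7, 16.1, 26.4, 56.01 and 49.9 CPM in OVX2_SCI7 and 20.3, 32.1, 2.07 and 24.7 CPM in SCI7. Every OVX8_SCI7 library lay above every SCI7 library, and replicate 3 of SCI7 was far below the rest of its group. The log2 fold change was 1.64 (SE 0.60), the largest of any member in OVX8_SCI7, with an edgeR adjusted p of 0.0595, and 0.90 (SE 0.59, edgeR adjusted p = 0.303) in OVX2_SCI7. It was called at 1.25 once replicate 3 of SCI7 was left out (edgeR adjusted p = 0.0457), at 1.63 once replicate 1 of OVX2_SCI7 was (edgeR adjusted p = 0.0434), and also by DESeq2 (adjusted p = 0.0191) and limma-voom (adjusted p = 0.0373).

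Itgb2, the common beta chain of the CD11 receptors, had 234, 215, 211 and 268 CPM in OVX8_SCI7, 60.9, 107, 256 and 302 CPM in OVX2_SCI7 and 105, 130.0, 31.1 and 177 CPM in SCI7. OVX8_SCI7 and SCI7 did not overlap, while replicate 1 of OVX2_SCI7 lay below most SCI7 libraries and replicate 4 of OVX2_SCI7 was the highest of all. The log2 fold change in OVX8_SCI7 was 1.06 (SE 0.52, edgeR adjusted p = 0.137).

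Itgam, the alpha M chain of the complement receptor of microglia, macrophages and neutrophils, had 237, 219.7, 236 and 287 CPM in OVX8_SCI7, 127, 157, 195 and 282 CPM in OVX2_SCI7 and 173, 229, 86.2 and 274 CPM in SCI7. All groups overlapped, with a log2 fold change of 0.36 (SE 0.32, edgeR adjusted p = 0.400) in OVX8_SCI7 and -0.0012 in OVX2_SCI7. It was the alpha chain of this family with the highest level, 77.4 TPM on average, against 17.4 TPM for Itgax and 3.66 TPM for Itgal.

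Itgal, the alpha L chain of lymphocytes and myeloid cells, had 13.3, 11.3, 11.9 and 15.2 CPM in OVX8_SCI7, 5.35, 7.43, 16.4 and 19.9 CPM in OVX2_SCI7 and 4.17, 8.11, 2.13 and 12.3 CPM in SCI7. Only replicate 4 of SCI7 reached the OVX8_SCI7 range, and the log2 fold change was 0.95 (SE 0.5, edgeR adjusted p = 0.163). Itgb7, the beta chain of gut-homing lymphocytes, had 7.10, 7.36, 6.59 and 8.21 CPM in OVX8_SCI7, 2.97, 4.50, 7.40 and 8.55 CPM in OVX2_SCI7 and 4.07, 4.62, 1.64 and 4.59 CPM in SCI7. It did not overlap between OVX8_SCI7 and SCI7 and had a log2 fold change of 0.97 (SE 0.36, edgeR adjusted p = 0.0612). Without replicate 1 of OVX2_SCI7 it was called at 0.96 (edgeR adjusted p = 0.0301).

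Itga4, the alpha chain of the receptor that lets leukocytes bind VCAM-1, had 33.1, 24.96, 27.4 and 46.97 CPM in OVX8_SCI7, 18.6, 14.02, 56.97 and 39.7 CPM in OVX2_SCI7 and 27.7, 48.6, 15.8 and 49.6 CPM in SCI7. It was the single leukocyte member below 0, at -0.098 (SE 0.45, edgeR adjusted p = 0.885) in OVX8_SCI7, and its groups overlapped throughout. Its sign turned when SCI7 replicate 2 (0.093) or 4 (0.11) or OVX8_SCI7 replicate 2 (0.019) was left out. Itgae, the alpha E chain of tissue-resident lymphocytes, had 1.23, 1.40, 1.15 and 1.24 CPM in OVX8_SCI7, 0.848, 1.21, 1.72 and 1.87 CPM in OVX2_SCI7 and 0.581, 1.13, 0.491 and 1.82 CPM in SCI7, with a log2 fold change of 0.32 (SE 0.39). Itgad had 1.32, 0.497, 0.649 and 0.324 CPM in OVX8_SCI7, 0.477, 0.464, 0.375 and 0.259 CPM in OVX2_SCI7 and 0.264, 0.537, 0.545 and 0.202 CPM in SCI7. These values rest on 4 to 30 counts per library, and Itgad is a close relative and neighbour of Itgax and Itgam, so its level of 0.915 TPM is uncertain.

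**Figure D3:**
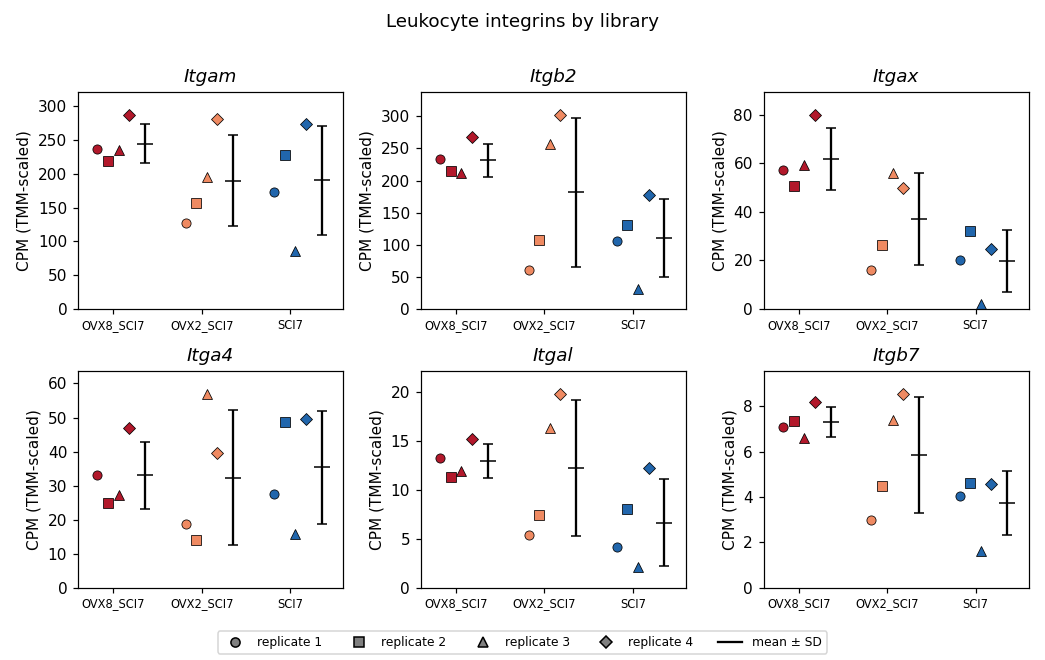
CPM of 6 leukocyte integrins by group, with a marker shape for each replicate number and the mean ± SD (n = 4); each axis starts at 0. For Itgb2, Itgax and Itgb7 all OVX8_SCI7 points lie above all SCI7 points, as they do for 19.6% of all genes. Replicate 3 of SCI7 is the lowest SCI7 point in all 6 panels, and none of the 6 was called.

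Per length, the leukocyte integrins together held 248, 261, 278 and 357 TPM in replicates 1 to 4 of OVX8_SCI7, 106, 165, 239 and 292 TPM in OVX2_SCI7 and 131, 209, 64.1 and 263 TPM in SCI7. The 17 matrix integrins held 787 ± 109 TPM in OVX8_SCI7, 669.6 ± 120.5 TPM in OVX2_SCI7 and 751 ± 227 TPM in SCI7 (mean ± SD, n = 4 each). The ratio of both sums was 0.359, 0.345, 0.367 and 0.379 in OVX8_SCI7, 0.204, 0.258, 0.296 and 0.408 in OVX2_SCI7 and 0.202, 0.234, 0.132 and 0.268 in SCI7. Every OVX8_SCI7 library had a higher ratio than every SCI7 library, and OVX2_SCI7 spanned most of the range of both. The sums are not corrected for transcript GC content and rest on a few abundant chains. Itgb2 and Itgam had means of 107 and 77.4 TPM, at 53.1 and 48.9% GC. Among matrix integrins Itgb5 and Itgb1 had 226 and 201 TPM, at 57.0 and 44.8% GC. The part of the GC trend in the ratio was not tested. As a difference of group means of the log2 ratio, OVX8_SCI7 stood 0.84 above SCI7, OVX2_SCI7 0.48 above SCI7 and OVX8_SCI7 0.36 above OVX2_SCI7, a description with no test since it is a score over chosen members. Without replicate 3 of SCI7 the difference to SCI7 became 0.63 for OVX8_SCI7 and 0.28 for OVX2_SCI7, and without replicate 4 of OVX2_SCI7 it was 0.30 for that group. Without replicate 1 of OVX2_SCI7, OVX8_SCI7 stood 0.20 above OVX2_SCI7. Taken from means of log2(TPM + 1) over the members, OVX8_SCI7 stood 0.52 above SCI7 and 0.15 above OVX2_SCI7.

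Microglia and macrophage markers, like this ratio, were summed higher in every OVX8_SCI7 library than in every SCI7 library. Within OVX8_SCI7 replicate 4 had the highest ratio, 0.379, and the lowest sum, 2674 CPM. Within OVX2_SCI7 ratio and sum were lowest in replicate 1, at 0.204 and 1229.8 CPM, and highest in replicate 4, at 0.408 and 3652 CPM. Within SCI7 they were lowest in replicate 3, at 0.132 and 729 CPM, and highest in replicate 4, at 0.268 and 1794 CPM. The summed CPM of 8 such markers was 2674 to 3136 in OVX8_SCI7, 1229.8 to 3652 in OVX2_SCI7 and 729 to 1794 in SCI7. Of the 8, C1qa, C1qb, Csf1r and Tmem119 were called higher and P2ry12 lower in OVX8_SCI7 against SCI7. Over all genes tested 11.9% were called higher and 15.6% lower. The transcripts of the 4 higher genes have 59.5, 57.4, 54.5 and 59.1% GC and that of P2ry12 38.6%. With the GC and length offset described below none of the 8 was called. Their median log2 fold change then was 0.50, against 1.00 without it. Of 5 tested neutrophil markers none was called, with sums of 41.3 to 56.6 CPM in OVX8_SCI7, 20.3 to 65.3 in OVX2_SCI7 and 52.9 to 62.4 in SCI7. Of 3 tested T and NK cell markers Cd8a was called higher, where 11.9% of all genes were. The 6 listed summed to 3.66 to 5.64 CPM in OVX8_SCI7, 3.18 to 11.95 in OVX2_SCI7 and 0.600 to 2.52 in SCI7. The part of a different number of these cells in the ratio was not tested.

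**Figure D4:**
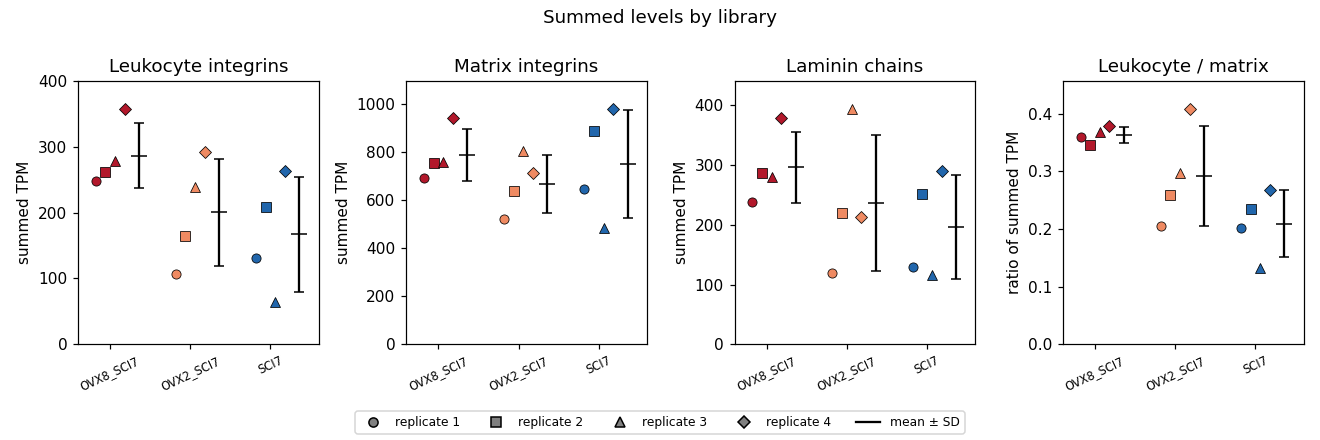
Summed TPM of 8 leukocyte integrins, 17 matrix integrins and 10 laminin chains, and the ratio of the first to the second, by group, with a marker shape for each replicate number and the mean ± SD (n = 4); each axis starts at 0. In the panel of the ratio the OVX8_SCI7 points lie between 0.345 and 0.379, above all SCI7 points, and the sums of matrix integrins overlap in all groups.

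The platelet chain Itga2b, alpha IIb of the fibrinogen receptor, had 2.64, 2.55, 3.20 and 2.11 CPM in OVX8_SCI7, 1.86, 2.97, 3.06 and 2.70 CPM in OVX2_SCI7 and 1.48, 1.61, 1.15 and 2.17 CPM in SCI7. The highest SCI7 library overlapped with the lowest of OVX8_SCI7, and the log2 fold change was 0.71 (SE 0.25, edgeR adjusted p = 0.0543). It was called at 0.89 once replicate 4 of SCI7 was left out (edgeR adjusted p = 0.0315) and at 0.70 once replicate 1 of OVX2_SCI7 was (edgeR adjusted p = 0.0330). Of 3 tested platelet markers none was called, and the 5 listed summed to 13.4 to 32.6 CPM in OVX8_SCI7, 3.23 to 44.8 in OVX2_SCI7 and 3.65 to 31.5 in SCI7, with Gp6 at or under the floor in every library. Pf4 made up most of this sum in every library, at 11.5 to 31.6 CPM in OVX8_SCI7 and 2.18 to 29.0 CPM in SCI7. Of the 3 tested, 1 was positive and 2 negative in OVX8_SCI7 against SCI7, with a median log2 fold change of -0.48.

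All 10 laminin chains were positive in both comparisons with SCI7, and 2 of them were called higher, both in OVX8_SCI7, where 11.9% of all genes were called higher and 9064 of 17821 were positive. With the GC and length offset described below, Lamb3 turned to -0.42 in OVX8_SCI7 and -0.35 in OVX2_SCI7. The median log2 fold change was 0.71 in OVX8_SCI7 and 0.45 in OVX2_SCI7. The summed level was 238 to 379 TPM in OVX8_SCI7, 119 to 394 in OVX2_SCI7 and 115 to 290.5 in SCI7, with all groups overlapping.

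Lamb2 encodes the beta 2 chain of vessel, meningeal and synaptic laminins and was the most abundant beta chain at 61.9 TPM, against 30.1 TPM for Lamb1. It had 185, 209.8, 181 and 211 CPM in OVX8_SCI7, 70.8, 151, 324 and 149 CPM in OVX2_SCI7 and 60.8, 112, 67.2 and 113 CPM in SCI7. OVX8_SCI7 and SCI7 did not overlap, and replicates 1 and 3 of OVX2_SCI7 fell outside the OVX8_SCI7 range on opposite sides. It gave a log2 fold change of 1.15 (SE 0.37, edgeR adjusted p = 0.0395) in OVX8_SCI7 and 0.98 (SE 0.37, edgeR adjusted p = 0.0986) in OVX2_SCI7. The OVX8_SCI7 call was lost in 8 of the 12 fits that left out 1 library, those without any single OVX8_SCI7 library, without replicate 1, 2 or 3 of SCI7 or without replicate 4 of OVX2_SCI7, at log2 fold changes of 1.01 to 1.29 and adjusted p-values of 0.0515 to 0.102.

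Lamc3, the gamma 3 chain, had 16.3, 19.7, 17.98 and 14.8 CPM in OVX8_SCI7, 11.7, 19.9, 17.8 and 20.3 CPM in OVX2_SCI7 and 8.08, 11.2, 10.4 and 11.5 CPM in SCI7. Every library of both ovariectomy groups lay above every SCI7 library. Its log2 fold changes were 0.74 (SE 0.19, edgeR adjusted p = 0.0200) in OVX8_SCI7 and 0.76 (SE 0.19, edgeR adjusted p = 0.0520) in OVX2_SCI7. The OVX8_SCI7 call was lost without replicate 1 or 2 of SCI7 or replicate 2 or 3 of OVX8_SCI7, at log2 fold changes of 0.64 to 0.79.

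Lamc1, the gamma chain of most laminins, was the most abundant chain at 78.2 TPM and had 264, 288, 276 and 384 CPM in OVX8_SCI7, 121, 169.6, 425 and 239 CPM in OVX2_SCI7 and 146, 255, 90.5 and 262 CPM in SCI7. The lowest OVX8_SCI7 library lay just above the highest of SCI7, and the log2 fold change of 0.69 (SE 0.40, edgeR adjusted p = 0.200) did not pass. Lama4, the alpha chain of vessel laminin with the highest level of the alpha chains, had 95.9, 90.7, 79.9 and 143 CPM in OVX8_SCI7, 21.6, 49.9, 162 and 77.3 CPM in OVX2_SCI7 and 58.5, 92.3, 26.7 and 107 CPM in SCI7. Its groups overlapped, with a log2 fold change of 0.52 (SE 0.53, edgeR adjusted p = 0.467). Lama5, of mature vessel walls, and Lama3 and Lama2 had 0.79, 0.80 and 0.83, with edgeR adjusted p-values of 0.0595, 0.0759 and 0.113. Lama1, Lamb1 and Lamb3 had 0.48, 0.61 and 0.11.

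Levels of laminin chains and of fibroblast and vessel markers varied within groups. Replicate 3 of OVX2_SCI7 was the highest of all 12 libraries for 5 of 10 laminin chains and the lowest for 1, Lamb3, and replicates 1 and 3 of SCI7 were the lowest for 4 and 3. In that OVX2_SCI7 library 5 fibroblast markers summed to 27139 CPM and 5 endothelial markers to 463 CPM, and in replicate 1 of the same group to 815 CPM and 149 CPM. By group the fibroblast sum was 7711 to 14695 CPM in OVX8_SCI7, 815 to 27139 in OVX2_SCI7 and 969 to 7109 in SCI7. The endothelial sum was 289 to 373 CPM in OVX8_SCI7, 149 to 463 in OVX2_SCI7 and 142 to 396 in SCI7. None of the 10 markers was called or at 0 in all libraries, and the part of these cells in the laminin values was not tested.

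Across all 35 members, replicate 3 of SCI7 was the lowest library of the 12 for 15, including 6 of 8 leukocyte integrins. Replicate 3 of OVX2_SCI7 was the highest for 10. The median rank of a member, from 1 for the lowest library to 12, was 2 in replicate 3 of SCI7, 3 in replicate 1 of OVX2_SCI7 and 10 in replicate 3 of OVX2_SCI7, while the 4 libraries of OVX8_SCI7 had median ranks of 7 to 10.

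Fold changes of the members went together with the GC content of their transcripts, taken from the mouse annotation at hand. In OVX8_SCI7 against SCI7, 24 of 25 members with at least 50% GC were positive and 8 of 10 with less were negative. The 4 members called higher have 56.98% (Itgb5), 58.4% (Lamc3), 58.8% (Lamb2) and 60.00% (Itgb4), and those called lower 40.4% (Itgb8) and 43.5% (Itgav). Across the 35 genes Pearson's r was 0.74 and Spearman's rho 0.63, as a description, since genes of the same libraries are not independent replicates. Over 15087 protein-coding genes of the series the Spearman correlation of fold change and GC content was 0.82, so the members followed a trend of the whole series. In OVX2_SCI7 against SCI7 the members' Pearson r was 0.83 and in OVX8_SCI7 against OVX2_SCI7 0.091.

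With an offset for transcript GC content and length, fitted per library, no member and no gene was called in OVX8_SCI7 against SCI7, and the members' Pearson r was 0.040. The log2 fold changes then were -0.41 for Itgav, -0.49 for Itgb8, 0.48 for Itgb5 and 0.48 for Lamb2, with edgeR adjusted p-values of 0.296, 0.291, 0.477 and 0.504. Those of Lamc3 and Itgb4 were 0.061 and -0.057. Itgax had 1.45, with an adjusted p of 0.278. The median of the leukocyte integrins was 0.55 with the offset and that of the matrix integrins 0.014. The GC trend follows the groups, and its part in the 6 calls cannot be told apart from that of ovariectomy.

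**Figure D5:**
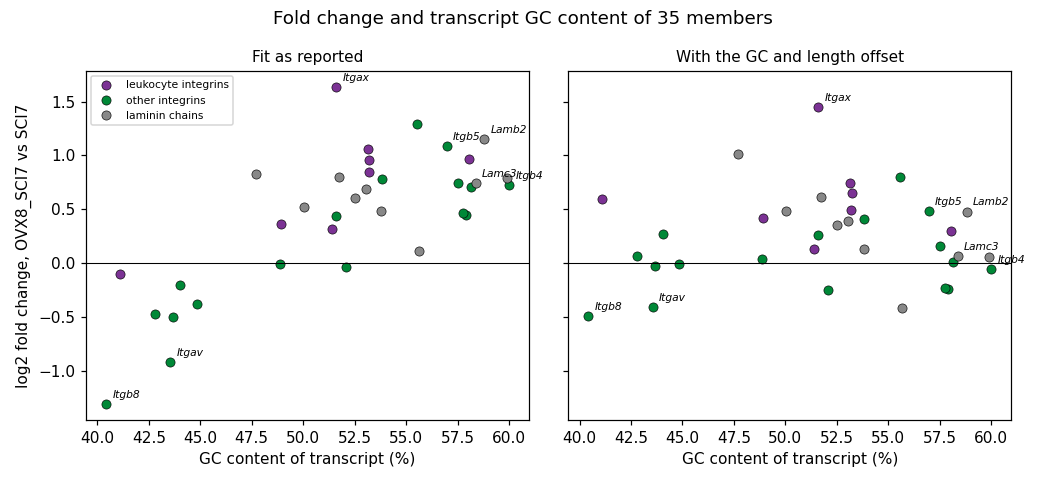
Log2 fold change of the 35 tested members in OVX8_SCI7 against SCI7 over the GC content of the transcript in percent, as fitted (left) and with the GC and length offset (right), coloured by kind of subunit. On the left the points climb from Itgb8 at -1.31 and 40.4% GC to a cluster mostly above 0 at 50% GC and more, and on the right 26 of the 35 points lie above 0, with a median of 0.26 and Itgax highest at 1.45.

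Genes that act with integrins were described from 4 lists of 52 genes. Of 22 tested adaptors and kinases, 4 were called higher and 2 lower in OVX8_SCI7 against SCI7, beside the 11.9% and 15.6% of all genes. The 2 with the smallest p were Fermt2, which encodes the widely expressed integrin activator kindlin-2, and Lims1, of the complex of ILK, PINCH and parvin. Fermt2 had 93.4 ± 6.24 CPM in OVX8_SCI7, 109 ± 33.1 CPM in OVX2_SCI7 and 167 ± 9.58 CPM in SCI7 (SD, n = 4 each), a log2 fold change of -0.84 in OVX8_SCI7 (SE 0.18, edgeR adjusted p = 0.0143). Lims1 had 75.1 ± 17.05 CPM in OVX8_SCI7, 79.5 ± 17.97 CPM in OVX2_SCI7 and 147 ± 36.4 CPM in SCI7, a log2 fold change of -0.97 (SE 0.24, edgeR adjusted p = 0.0168).

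The 4 higher genes of that list, named after their values were seen, were Fermt3, Tns1, Sharpin and Bcar1. Fermt3 encodes kindlin-3, which activates integrins in blood cells, and had 71.5 ± 6.70 CPM in OVX8_SCI7, 53.9 ± 34.4 CPM in OVX2_SCI7 and 25.3 ± 12.2 CPM in SCI7. Its log2 fold change was 1.5 (SE 0.48, edgeR adjusted p = 0.0375), and those of the adaptors Tns1, Sharpin and Bcar1 were 0.78, 0.64 and 0.61. The GC content of the transcript is 57.9% for Fermt3 and 45.9% for Fermt2, and with the offset their log2 fold changes were 0.83 and -0.56, neither called.

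Of 8 tested cell-surface ligands of leukocyte integrins, 1 was called higher and 1 lower in OVX8_SCI7 against SCI7, which is near the 11.9% and 15.6% of all genes. Icam5, the neuronal ligand of the alpha L beta 2 receptor, had 2.07 ± 0.464 CPM in OVX8_SCI7, 1.52 ± 0.938 CPM in OVX2_SCI7 and 0.794 ± 0.111 CPM in SCI7, with a log2 fold change of 1.38 (SE 0.39, edgeR adjusted p = 0.0256). Jam2, a junction protein of endothelium, had 102 ± 11.8 CPM in OVX8_SCI7, 123 ± 55.6 CPM in OVX2_SCI7 and 170.4 ± 11.2 CPM in SCI7, with -0.74 (SE 0.25, edgeR adjusted p = 0.0462).

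Of 7 tested soluble and matrix ligands 1 was called higher, near the 11.9% of all genes. Vtn, which encodes vitronectin, a ligand of alpha v beta 5, had 142 ± 12.2 CPM in OVX8_SCI7, 137 ± 42.6 CPM in OVX2_SCI7 and 89.6 ± 10.7 CPM in SCI7, with a log2 fold change of 0.66 (SE 0.21, edgeR adjusted p = 0.0376). Egfl7, a matrix protein of endothelium, had 0.68 (edgeR adjusted p = 0.127). Of 9 basement membrane partners, all positive in OVX8_SCI7 against SCI7 and all tested, 1 was called higher, again near the share of all genes. Agrn, which encodes the heparan sulfate proteoglycan agrin, had 219 ± 21.8 CPM in OVX8_SCI7, 202 ± 48.1 CPM in OVX2_SCI7 and 140.1 ± 33.04 CPM in SCI7, with 0.64 (SE 0.21, edgeR adjusted p = 0.0392). Hspg2, which encodes perlecan, had 1.29 (SE 0.55, edgeR adjusted p = 0.0953). Without replicate 2 of OVX8_SCI7 no gene of the series was called against SCI7, these included. In OVX2_SCI7 against SCI7, and between the ovariectomy groups, none of the 52 genes was called.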

How the data were processed

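The submitters' processing notes name fastp 0.23.4, HISAT2 2.2.1, RSEM 1.3.3 and the build GRCm39, without stating the role of each. The authors deposited RSEM expected counts, TPM and FPKM per gene, as 3 tables of 57180 genes. Of the FPKM table only the gene ids were matched to the others, and its values were not used. Whether columns of a name hold the same sample was checked between counts and TPM, over 12934 genes. Deviations from the mean of all libraries correlated at 0.930 to 0.973 for the same name and at 0.821 at most for different names. The library kit, RNA selection and strand setting are not given in the sources used here. The 9 columns of the authors' group means were not used. Genes without a symbol (0.0786 to 0.158% of counts) stayed in the totals.

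Expected counts were rounded to whole numbers and fitted with edgeR 4.0.16 in R 4.3.3 (filterByExpr by group, TMM, robust quasi-likelihood F-test, all 12 libraries in 1 fit with the group as its only term), with Benjamini-Hochberg adjustment over 17821 genes. The SE is the log2 fold change divided by the square root of F. CPM values are scaled by TMM, and levels of different genes were compared in TPM. Floors of 3 counts cover counting error only. Library totals set the precision of low genes. The edgeR test was checked on simulated counts in which 200 genes were changed. The simulation held the same spread for all genes and no GC trend, so it does not cover those features of these libraries. Settings varied were DESeq2 1.42.0 as test and as size factors, limma 3.58.1 (voom, and trend on log2(TPM + 1) and log2(TPM + 0.1)), filters (none, or 1 CPM or more in 4 libraries with 50 counts on average), the libraries used, the replicate block, and an offset from a spline with 5 degrees of freedom on transcript GC content and length (97.9% of genes had both). GC content came from a GRCm38 annotation.

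The members and all lists were chosen with earlier results of these data known. Values in every library are given for called members, for leukocyte integrins and for the member with the highest mean TPM of each role. Of each pathway list the 2 genes with the smallest p are named.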

Additional observations from a re-analysis of the deposited data

Results flagged for a closer look

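In replicate 4 of OVX8_SCI7, 3 members stood far above the other 3 libraries of the group, further than Dixon's 95% critical value allows for 4 samples. Itga1 was at 48.0 CPM there, against 27.5 to 28.7 CPM in the others. Itga2 was at 8.53 CPM, against 3.88 to 4.22 CPM. Itga9 was at 31.3 CPM, against 25.3 to 25.6 CPM. Chance flags about 1 in 20 groups, and 111 groups were checked. The same library had the lowest GC trend of its group, a Spearman correlation of 0.15, and the highest sum of 5 fibroblast markers in its group, 14695 CPM, and their part in these values was not tested. None of the 3 members was called in any comparison of all 12 libraries, and Itga9 was called higher in OVX8_SCI7 against SCI7 without replicate 4 of SCI7.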

How the results depend on the processing

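In OVX8_SCI7 against SCI7, 4894 genes and 6 members were called. Genes called were 3252 without the low-count filter, 2973 and 2850 with limma-trend on log2(TPM + 1) and log2(TPM + 0.1), 7424 with the 8 libraries of the comparison alone, 7720 without replicates 1 and 2 of OVX2_SCI7, 0 with the GC and length offset and 1 with the offset and the block, and 0 to 6706 leaving out 1 library, with 0 without replicate 2 of OVX8_SCI7. Members called were 11 with DESeq2, 15 with the 8 libraries, 13 without those OVX2_SCI7 replicates, 0 with either offset and 0 to 10 leaving out 1 library.

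In OVX2_SCI7 against SCI7, where 0 were called, genes called were 14 without the filter, 1148 with a stricter filter, 3706 with DESeq2, 705 with limma-voom, 16 and 12 with limma-trend at pseudocounts of 1 and 0.1, 2 with the 8 libraries, 8 with the offset, 7139 without replicates 1 and 2 of OVX2_SCI7 and 0 to 6264 leaving out 1 library. Members called were 2 with the stricter filter, 6 with DESeq2, 1 with limma-voom, 13 without those replicates and 0 to 9 leaving out 1 library. Between the ovariectomy groups DESeq2 called 6 genes, and 0 to 1 were called leaving out 1 library, with no member called under any setting run.

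The replicate numbers gave no sign of pairing. In their deviations from the group means, same-numbered libraries correlated at -0.63 to 0.50 and differently numbered ones at -0.61 to 0.60. With the number as a block, 3390 genes and 6 members were called in OVX8_SCI7 against SCI7, with Itgb5 lost and Lama5 gained, and 0 in the other comparisons. Of the 4 libraries of OVX8_SCI7 against those of SCI7, 2 were closest to their own number.

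The sign of the log2 fold change in OVX8_SCI7 against SCI7 turned for 5 named members. With the offset, and with offset and block, these were Itga1 (0.069 and 0.13), Itga4 (0.60 and 0.61), Itga6 (0.037 and 0.038) and Itgb4 (-0.057 and -0.048). Itga6 also had 0.035 without the filter and 0.028 with limma-voom, and Itgad -0.020 and -0.0046 with limma-trend at pseudocounts of 1 and 0.1. Leaving out 1 library gave -0.35 to 0.11 for Itga4 and -0.19 to 0.10 for Itga6. The difference in log2 leukocyte to matrix ratio, OVX8_SCI7 against SCI7, was 0.52 from means of log2(TPM + 1). The cause of these shifts was not tested. Itgae, Itgad and Itgb6, at up to 1.87 CPM, are limited by depth.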
